A study of Mus musculus with 12 samples.

Results

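The 8 genes studied here were grouped as regulators of early lymphoid development. They were followed across mouse marrow subsets through every array probe named Notch1, Satb1, Sox4, Mef2c, Bcl11a, Lax1, Cnr2 or Myb. These names cover 8 of 31541 gene names and 12 of 39429 probes on the array. All 12 probes passed the filter on dim signals, by which 23271 probes remained. The study measured RNA with 12 one-colour Agilent arrays in 6 groups of 2. All cells came from bone marrow of C57BL/6 females aged 16 weeks that carried a reporter, human CD4 (hCD4) driven by the enhancer and promoter of Cebpa, the gene of a myeloid transcription factor. The groups were hCD4+ GMP (granulocyte-monocyte progenitors), hCD4+ and hCD4- pre-pro-B cells, hCD4+ and hCD4- pro-B cells, and pre-B cells, for which the labels state no hCD4 status. Every group, hCD4- ones included, thus carried the reporter transgene, and hCD4+ marks cells positive for the reporter. The series title speaks of a pair of mice, but the labels tie no array to an animal, so p-values measure only the spread between these arrays.

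B cell precursors pass through the pre-pro-B, pro-B and pre-B stages, while GMP give rise to neutrophils and monocytes. Before commitment, progenitors already transcribe some lymphoid genes at low level, a state called lymphoid priming. Satb1, Mef2c, Bcl11a, Sox4 and Myb encode nuclear factors that progenitors need in order to enter or pass through this route, whereas signalling by the Notch1 receptor directs progenitors to the T lineage and away from the B lineage. Lax1 encodes a membrane adaptor that dampens antigen receptor signalling, and Cnr2 encodes the cannabinoid receptor CB2, found mainly on immune cells.

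The array reports each gene through 60-base probes, and the positions given are those of the mm9 build in the array's annotation. Exon and UTR boundaries of that build were not used here. The sequences of 3 probes are printed: the Notch1 probe was above background on all 12 arrays, unlike the other probe of its gene, the Sox4 probe made calls that the brightest Sox4 probe did not, and the Mef2c probe is the only one of its gene. The Notch1 probe lies on the minus strand of chromosome 2 at chr2:26319440-26319499. The Sox4 probe lies on the minus strand at chr13:29044482-29044541 and is the dimmest of 3 probes for that gene. The Mef2c probe maps to the plus strand over chr13:83772788-83775025, a span of 2238 bases for 60 probe bases, so its sequence is split in the genome.
Notch1 probe 1: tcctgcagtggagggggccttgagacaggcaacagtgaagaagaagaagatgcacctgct
Sox4 probe 3: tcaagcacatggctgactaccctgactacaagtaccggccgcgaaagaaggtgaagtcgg
Mef2c: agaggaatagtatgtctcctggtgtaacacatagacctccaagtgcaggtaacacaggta

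Levels below are log2 values of a probe's signal relative to the 75th percentile of its own array, so 0 stands for that percentile. The 75th percentile was 247 to 362 intensity units on the hCD4- pre-pro-B arrays and 435 to 953 on the other arrays. The median SD between replicate arrays was 0.23 in hCD4- pre-pro-B cells and 0.10 to 0.16 in the other groups. Arrays came on 3 slides, each scanned in its own run: slide 1 held GMP and hCD4- pre-pro-B cells, slide 2 hCD4- pro-B cells with hCD4+ pre-pro-B cells, slide 3 hCD4+ pro-B and pre-B cells. Slide and group therefore cannot be told apart in either hCD4 comparison or in most stage steps. Within a slide, 3 comparisons could be made, and they are named as such below. Ebf1 and Pax5, the defining transcription factors of committed B cells, were above background on no GMP or pre-pro-B array and on every pro-B and pre-B array. Summed signal of 10 plasmacytoid dendritic cell markers, relative to the 75th percentile, was 593 to 646 in hCD4+ pre-pro-B cells and 856 to 871 in hCD4- pre-pro-B cells, against 131 to 250 in the other groups. In GMP, 8 neutrophil and monocyte progenitor genes summed to 1000.2 to 1211. The same sum was 141 to 155 in hCD4+ pro-B cells against 6.74 to 7.43 in hCD4- pro-B cells. At the pre-pro-B stage it was 68.2 to 89.2 in hCD4+ and 64.6 to 66.2 in hCD4- cells. The mean log2 levels of these genes there were 0.16 to 1.29 and -2.14 to -1.44. In the sorted bulk samples, fewer cells of a type and less RNA per cell cannot be told apart.

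The genes fell into different profiles over the 6 groups. Bcl11a and Mef2c were highest in the pre-pro-B groups and low in GMP and pre-B cells. Notch1 stood above its level in all other groups at the pre-pro-B stage. Myb and Sox4 were lowest in pre-pro-B cells and highest in pre-B cells. Lax1 was above background on the pro-B and pre-B arrays only. Cnr2 was highest in pre-B cells, and Satb1 was lower in GMP and pre-B cells than in the groups between.

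**Figure D1:**
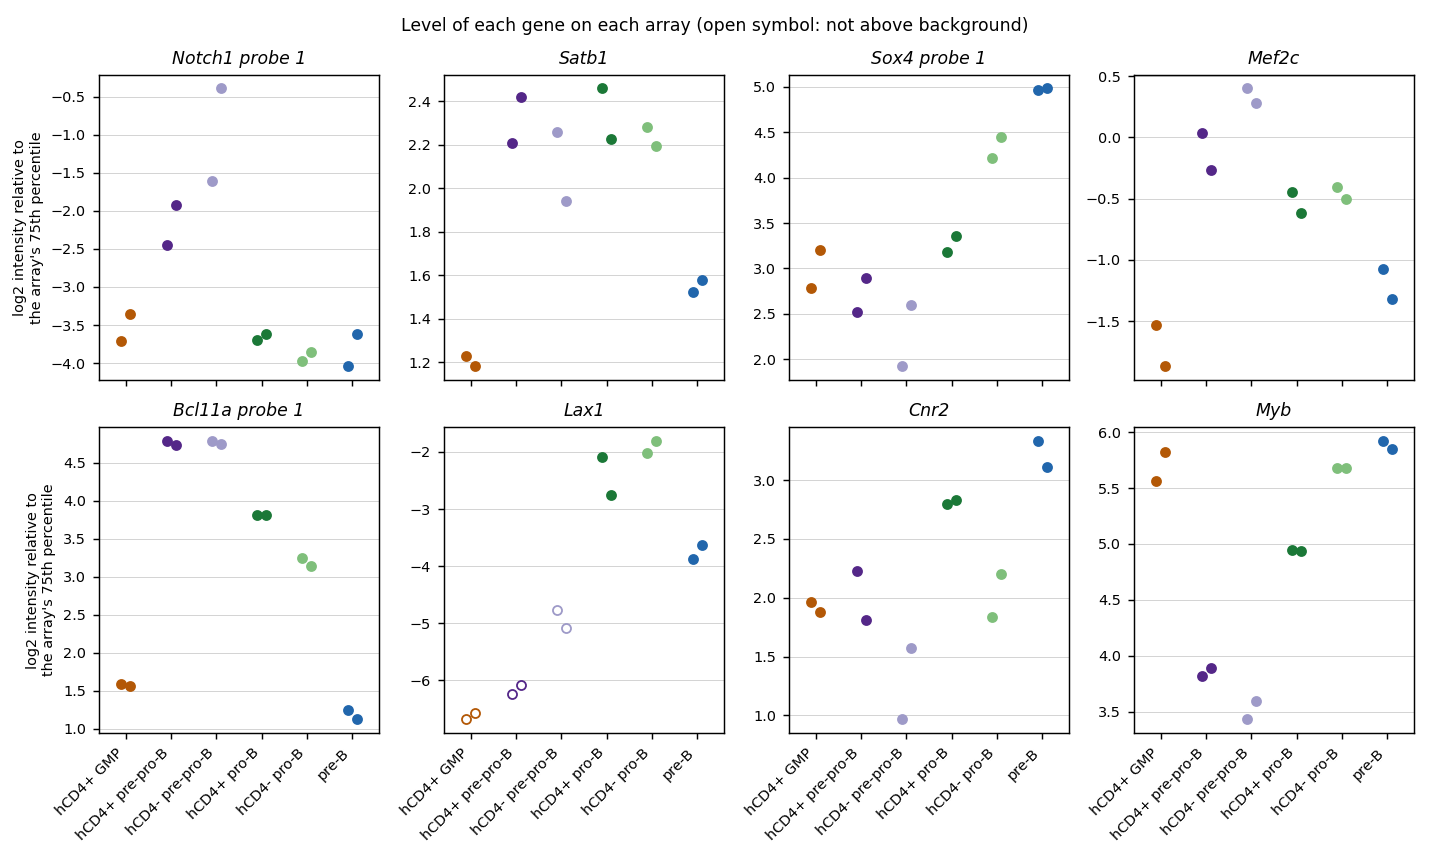
Log2 level of each gene (vertical axis, relative to the array's 75th percentile) on each of the 12 arrays, by group; open points were not above background. Bcl11a lies between 4.73 and 4.78 on all 4 pre-pro-B arrays, and Lax1 has open points on all GMP and pre-pro-B arrays.

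Bcl11a encodes a zinc-finger repressor required for B cell and plasmacytoid dendritic cell development. Its main probe read 1.60 and 1.56 in GMP, 4.78 and 4.73 in hCD4+ pre-pro-B, 4.78 and 4.75 in hCD4- pre-pro-B, 3.81 and 3.82 in hCD4+ pro-B, 3.25 and 3.14 in hCD4- pro-B and 1.25 and 1.13 in pre-B cells. The 4 pre-pro-B arrays were the highest and overlapped with each other, and no other pair of neighbouring groups overlapped. GMP were 9.11-fold lower than hCD4- pre-pro-B cells on the same slide (log2 difference -3.19, SE 0.10, limma adjusted p = 1.04e-07). GMP were likewise lower than hCD4+ pre-pro-B cells, by a log2 difference of -3.18 (SE 0.10, limma adjusted p = 1.35e-07). At the step from pre-pro-B to pro-B, Bcl11a had a log2 difference of -0.94 in hCD4+ cells (SE 0.10, limma adjusted p = 0.000142) and of -1.57 in hCD4- cells (SE 0.10, limma adjusted p = 4.36e-06). The test of whether these steps differ is the same as the test of the difference between the hCD4 contrasts given below. Pre-B cells were 6.16-fold below hCD4+ pro-B cells on the same slide (-2.62, SE 0.10, limma adjusted p = 3.17e-06). A second Bcl11a probe was near background and highest at -2.46 and -3.45 in hCD4- pre-pro-B cells. Its mean was lowest in hCD4+ pre-pro-B cells (-5.32, above background on neither array), so the probes disagree on the hCD4+ group. By that probe, hCD4+ pre-pro-B cells were at least 3.42-fold lower than hCD4- pre-pro-B cells (limma adjusted p = 0.00842), whereas the main probe differed by -0.01 (95% interval -0.25 to 0.23). In the authors' deposited table that difference was -0.65 (limma adjusted p = 0.00215) and the hCD4+ step to pro-B was -0.20 (0.122). With both probes averaged, the hCD4+ step was -0.01 (0.965) and hCD4- pro-B cells set against hCD4+ pre-pro-B cells gave -0.57 (0.0748). The other Bcl11a differences given here kept their calls, but in the authors' deposited table they shrank to -2.10 and -1.45 for GMP against hCD4- and hCD4+ pre-pro-B cells and to -1.35 for pre-B against hCD4+ pro-B cells. Here "at least" sets the bright group against the higher, per array, of the dim probe's signal and the dimmest signal well above background. The summed plasmacytoid dendritic cell markers were also highest in the pre-pro-B groups. Their sum was 131.2 to 131.4 in hCD4- pro-B cells and 131.4 to 133.4 in GMP. It was 173 to 177 in hCD4+ pro-B cells and 233 to 250 in pre-B cells. The mean log2 level of the same markers ordered these groups otherwise. That mean was 0.10 to 0.24 in GMP and 0.90 to 1.31 in hCD4- pro-B cells. In pre-B cells it was 1.25 to 1.55, and in hCD4+ pro-B cells 2.21 to 2.35. The part of these markers in the Bcl11a differences was not tested.

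Mef2c encodes a MADS-box transcription factor that favours lymphoid over myeloid fate. It read -1.54 and -1.87 in GMP, 0.04 and -0.26 in hCD4+ pre-pro-B, 0.40 and 0.28 in hCD4- pre-pro-B, -0.44 and -0.62 in hCD4+ pro-B, -0.41 and -0.50 in hCD4- pro-B and -1.08 and -1.32 in pre-B cells. Array by array, both pre-pro-B groups lay above all other groups, and GMP lay below all of them. The step to pro-B was -0.80 in hCD4- cells (limma adjusted p = 0.00343). In hCD4+ cells it was -0.42 without passing the test (limma adjusted p = 0.0641), though it passed under 6 of 25 alternatives. Levels of hCD4- pro-B cells over those of hCD4+ pre-pro-B cells, both on slide 2, gave -0.34 (limma adjusted p = 0.128), passing under 1 of 25. GMP were 4.13-fold lower than hCD4- pre-pro-B cells (log2 difference -2.05, SE 0.17, limma adjusted p = 1.21e-05) and 3.01-fold lower than hCD4+ pre-pro-B cells (-1.59, limma adjusted p = 8.12e-05). Between the hCD4+ and hCD4- groups, the difference was -0.46 at the pre-pro-B stage (95% interval -0.84 to -0.07, limma adjusted p = 0.0966) and -0.08 at the pro-B stage (-0.46 to 0.31). Pre-B cells were lower than hCD4+ pro-B cells (-0.67, SE 0.17, limma adjusted p = 0.0127) and than hCD4- pro-B cells (-0.74, SE 0.17, limma adjusted p = 0.00921). Without the second pre-B array both calls were lost, with limma adjusted p = 0.0868 and 0.0685 and differences of -0.55 and -0.62. The first was also lost without the first hCD4+ pro-B array (0.0742), and the second without the first hCD4- pro-B array (0.0553).

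Satb1, a chromatin organiser that gives stem cells lymphoid competence, read 1.23 and 1.18 in GMP, 2.21 and 2.42 in hCD4+ pre-pro-B, 2.26 and 1.94 in hCD4- pre-pro-B, 2.46 and 2.23 in hCD4+ pro-B, 2.28 and 2.19 in hCD4- pro-B and 1.53 and 1.58 in pre-B cells. Arrays of the 4 pre-pro-B and pro-B groups overlapped throughout, and all 8 of them lay above pre-B cells and GMP. GMP were 1.86-fold below hCD4- pre-pro-B cells (log2 difference -0.90, SE 0.15, limma adjusted p = 0.00078), and that call was lost when arrays were scaled on their medians (-0.44, adjusted p = 0.0808). They were 2.16-fold below hCD4+ pre-pro-B cells (-1.11, SE 0.15, limma adjusted p = 0.000318). Compared with hCD4+ pro-B cells, pre-B cells were lower (-0.79, SE 0.15, limma adjusted p = 0.00313), as they were compared with hCD4- pro-B cells (-0.69, SE 0.15, limma adjusted p = 0.00766). For the hCD4+ against hCD4- difference, intervals were -0.13 to 0.55 in pre-pro-B and -0.23 to 0.44 in pro-B cells.

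Notch1 encodes a receptor whose cleaved intracellular part becomes a transcriptional coactivator, and the printed probe is the one of 2 by which it was counted. It read -3.71 and -3.35 in GMP, -2.45 and -1.92 in hCD4+ pre-pro-B, -1.60 and -0.39 in hCD4- pre-pro-B, -3.70 and -3.61 in hCD4+ pro-B, -3.97 and -3.86 in hCD4- pro-B and -4.04 and -3.61 in pre-B cells. All 4 pre-pro-B arrays were above every other array, and those of hCD4- pre-pro-B cells differed most from each other. Against hCD4- pre-pro-B cells, hCD4- pro-B cells were 7.57-fold lower (log2 difference -2.92, SE 0.37, limma adjusted p = 0.000202). The size of that difference depended on the source: it was -1.74 after normexp correction and quantile normalization (adjusted p = 0.000211), -1.16 with both Notch1 probes averaged (0.0338) and -0.80 in the authors' deposited table (0.0112). Against hCD4+ pre-pro-B cells, hCD4+ pro-B cells were 2.77-fold lower (-1.47, SE 0.37, limma adjusted p = 0.0102), but without the second hCD4+ pre-pro-B array the adjusted p was 0.068, and in the authors' deposited table the difference was -0.75. The comparison of hCD4- pro-B with hCD4+ pre-pro-B cells, made on 1 slide, gave -1.73 (SE 0.37, limma adjusted p = 0.00499). In the authors' deposited table that last difference was -0.35 (limma adjusted p = 0.236), and it was -0.42 with both Notch1 probes averaged (adjusted p = 0.425). The hCD4+ pre-pro-B cells were 2.28-fold below hCD4- pre-pro-B cells without passing the test (-1.19, 95% interval -2.04 to -0.34, limma adjusted p = 0.0595). That difference was -1.80 without the first hCD4- pre-pro-B array (adjusted p = 0.00589), -0.58 without the second (0.245) and -0.45 in the authors' deposited table (0.19). The second Notch1 probe was not above background on 8 of 12 arrays and read -2.15 and -4.82 in hCD4- pro-B cells, where 1 array carries its signal. The probes disagree there: by the second, hCD4- pro-B cells were at 0.61 over hCD4- pre-pro-B cells (SE 0.74, limma adjusted p = 0.502), and hCD4+ pro-B cells were at least 2.36-fold below hCD4- pro-B cells (limma adjusted p = 0.0394), a comparison in which the printed probe gave 0.26 (SE 0.37, adjusted p = 0.67).

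**Figure D2:**
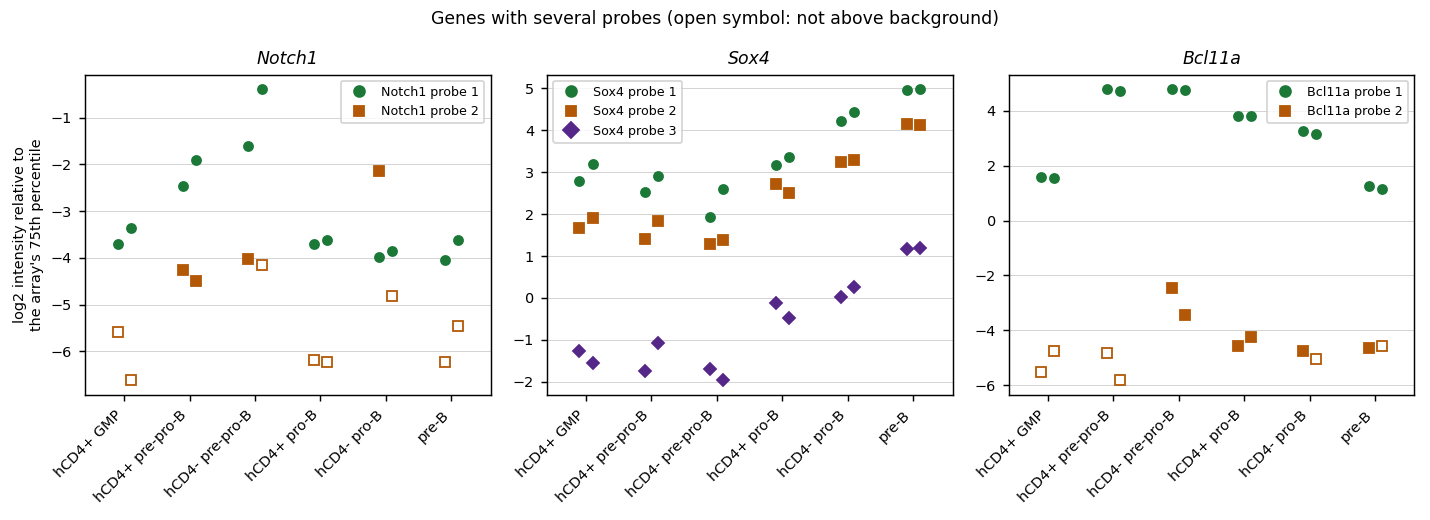
Log2 level (vertical axis) by group for each probe of the genes with several probes, Notch1 (2), Sox4 (3) and Bcl11a (2), with points for arrays and open points not above background. The 3 Sox4 probes share an order of groups, and the second Notch1 and Bcl11a probes lie near background.

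At the pro-B stage most Notch receptors were lower than at the pre-pro-B stage. Of 4 receptors, 3 fell and 1 rose in hCD4+ pro-B cells against hCD4+ pre-pro-B cells, and 3 fell and 1 rose in hCD4- pro-B cells against hCD4- pre-pro-B cells. Among all 18535 genes tested, 21.1% fell and 32.6% rose in the hCD4+ step, and 26.8% fell and 32.8% rose in the hCD4- step. On the log2 scale, Notch3 fell by 3.81 in hCD4+ (SE 0.27, limma adjusted p = 1.34e-05) and fell by 5.51 in hCD4- pro-B cells (SE 0.27, limma adjusted p = 7.99e-07). Notch2 fell by 1.70 in hCD4+ (SE 0.14, limma adjusted p = 3.44e-05) and fell by 2.67 in hCD4- pro-B cells (SE 0.14, limma adjusted p = 1.35e-06). Notch4, dim in every group, was the receptor that rose, by 0.58 in hCD4+ (limma adjusted p = 0.0233) and 0.57 in hCD4- pro-B cells (limma adjusted p = 0.0216). The 0.58 of Notch4 was not called under 4 other scalings of the arrays.

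Of 11 target genes of the pathway 8 passed the filter on dim signals. Among them 5 (Hes1, Heyl, Dtx1, Nrarp and Tcf7) passed only through pro-B or pre-B arrays, so a higher value there was set by the filter, and a count over the list says nothing about its direction. Ptcra, the pre-T cell receptor alpha chain, passed only through pre-pro-B arrays and was likewise bound to be lower, at least 3.46-fold in hCD4+ and at least 5.10-fold in hCD4- pro-B cells. The remaining pair, named here with their values known, was above background on every pre-pro-B and pro-B array. Hes5, a repressor of the Hes family, was higher by 2.11 in hCD4+ (limma adjusted p = 0.000444) and by 3.20 in hCD4- pro-B cells (2.6e-05). Il2ra, the interleukin 2 receptor alpha chain, was higher by 2.18 (limma adjusted p = 0.00072) and by 2.68 (0.000156) in the same steps. Hes1, a transcriptional repressor and a classical Notch target, was above background on no pre-pro-B array and was at least 10.5-fold higher in hCD4+ pro-B cells (limma adjusted p = 5.92e-07) and at least 9.91-fold higher in hCD4- pro-B cells (limma adjusted p = 1.45e-07). Dtx1, Nrarp and Tcf7 were likewise above background on no pre-pro-B array. Dtx1, a regulator of Notch signalling, was at least 5.92-fold higher in hCD4+ and at least 6.81-fold higher in hCD4- pro-B cells. Nrarp, a feedback inhibitor of the pathway, was at least 6.38-fold and at least 6.31-fold higher in the same steps. On 1 slide, hCD4- pro-B cells against hCD4+ pre-pro-B cells, Hes1 was at least 14.4-fold and Heyl at least 11.6-fold higher. Lfng, a glycosyltransferase that modifies Notch receptors, was at least 16.0-fold higher in hCD4- pro-B than in hCD4- pre-pro-B cells, while the 18 processing and transcription genes it belongs to split into 7 higher and 7 lower. Summed signal of 8 T cell markers was 6.15 to 7.58 in the pro-B groups and 14.7 to 16.8 in the pre-pro-B groups, and their part in these differences was not tested.

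**Figure D3:**
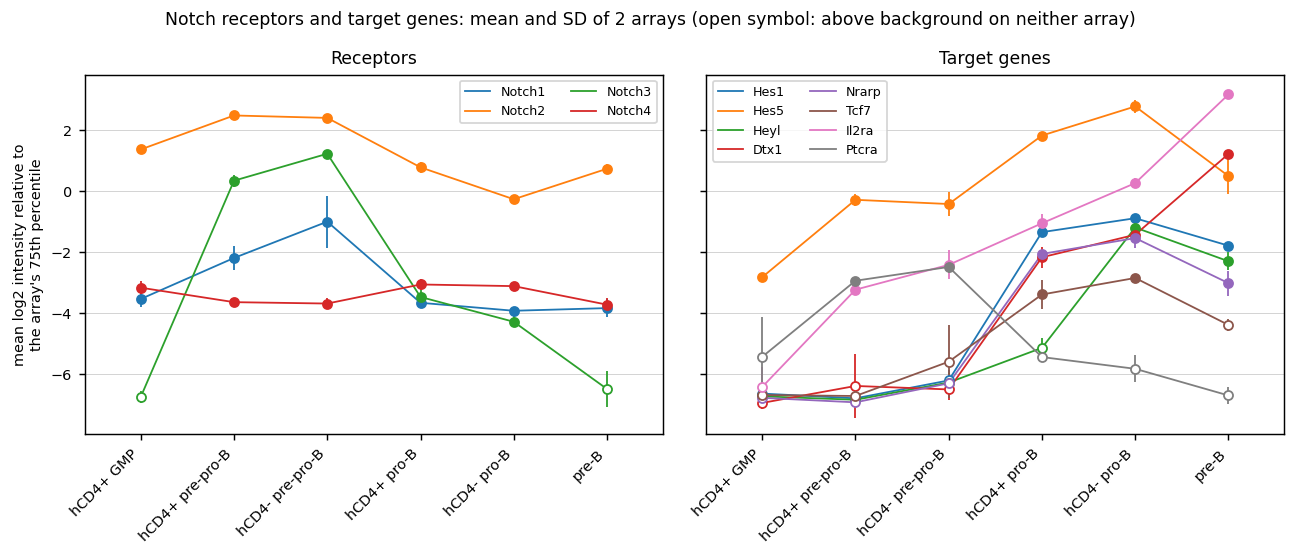
Mean log2 level ± SD of 2 arrays (vertical axis) of Notch receptors and of Notch target genes in each group. Notch3 averages 0.35 and 1.23 in hCD4+ and hCD4- pre-pro-B cells and is below background in GMP and pre-B cells, and Hes1 stands at -1.34 in hCD4+ and -0.88 in hCD4- pro-B cells.

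Myb encodes a transcription factor needed by most blood progenitors and by pro-B cells. It read 5.56 and 5.82 in GMP, 3.82 and 3.89 in hCD4+ pre-pro-B, 3.43 and 3.60 in hCD4- pre-pro-B, 4.95 and 4.94 in hCD4+ pro-B, 5.68 and 5.68 in hCD4- pro-B and 5.92 and 5.85 in pre-B cells. The 4 pre-pro-B arrays were the lowest, hCD4+ pro-B arrays came next, and GMP overlapped hCD4- pro-B cells near the top. Within slide 1, GMP were 4.52-fold above hCD4- pre-pro-B cells (log2 difference 2.18, SE 0.12, limma adjusted p = 1.57e-06). Within slide 2, hCD4- pro-B cells were 3.54-fold above hCD4+ pre-pro-B cells (1.82, limma adjusted p = 7.64e-06). Within slide 3, pre-B cells were 1.92-fold above hCD4+ pro-B cells (0.94, limma adjusted p = 0.00049). The step to pro-B was 1.09 in hCD4+ cells (limma adjusted p = 0.000164) and 2.16 in hCD4- cells (limma adjusted p = 1.88e-06). Mybl2, the relative of Myb that acts in dividing cells, averaged 3.92 in GMP, 2.62 in hCD4+ pre-pro-B cells, 0.66 in hCD4- pre-pro-B cells, 4.29 in hCD4+ and 4.24 in hCD4- pro-B cells, and 3.67 in pre-B cells. Between hCD4+ and hCD4- pre-pro-B cells it was higher in the hCD4+ ones by 1.96 (SE 0.16, limma adjusted p = 0.000178), where Myb differed by 0.34 (95% interval 0.06 to 0.62, adjusted p = 0.0915).

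Sox4 encodes an HMG-box transcription factor required for pro-B cell expansion. Its brightest probe read 2.79 and 3.21 in GMP, 2.52 and 2.90 in hCD4+ pre-pro-B, 1.92 and 2.59 in hCD4- pre-pro-B, 3.18 and 3.36 in hCD4+ pro-B, 4.22 and 4.44 in hCD4- pro-B and 4.97 and 4.98 in pre-B cells. Pre-B arrays were the highest and hCD4- pro-B arrays the next, and the GMP and pre-pro-B groups overlapped in part. Pre-B cells were 3.26-fold above hCD4+ pro-B cells on the same slide (log2 difference 1.71, SE 0.25, limma adjusted p = 0.000823), and the other probes gave 1.53 and 1.49. The step to pro-B was 2.07 in hCD4- cells (limma adjusted p = 0.00014). In hCD4+ cells it was 0.56 by the brightest probe (limma adjusted p = 0.0881), 0.99 by the second (0.00153) and 1.10 by the printed one (0.00531). Pre-B against hCD4- pro-B cells showed the same split between probes, with 0.65 (limma adjusted p = 0.0689), 0.88 (0.00469) and 1.04 (0.0108). GMP were above hCD4- pre-pro-B cells by 0.74 (limma adjusted p = 0.0268), but that call was unstable. It was lost with cyclic loess (0.26, adjusted p = 0.384), quantile normalization (0.49, 0.123), normexp and quantile normalization (0.48, 0.091) and in the authors' deposited table (0.40, 0.0606). It was also lost with no filter (0.0519), with array weights (0.0596), when only these 4 arrays of 1 slide were fitted (0.117), without the second GMP array (0.149) and without the first hCD4- pre-pro-B array (0.155), while array-median scaling gave 1.19.

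Lax1 read -2.08 and -2.75 in hCD4+ pro-B, -2.01 and -1.81 in hCD4- pro-B and -3.88 and -3.62 in pre-B cells. On GMP and pre-pro-B arrays its probe was not well above background, with readings from -6.68 to -4.76, so it passed the filter through pro-B and pre-B arrays alone. A higher value in pro-B than in pre-pro-B cells was therefore set by the filter, and the p-values of those comparisons lend no weight to the direction. Pro-B cells were at least 4.97-fold higher in the hCD4+ step (limma adjusted p = 6.36e-06) and at least 4.85-fold higher in the hCD4- step (limma adjusted p = 8.96e-06). Within slide 2, hCD4- pro-B cells were at least 7.03-fold above hCD4+ pre-pro-B cells (limma adjusted p = 1.91e-06). Pre-B cells were then lower, by 2.53-fold against hCD4+ pro-B cells on the same slide (log2 difference -1.34, SE 0.22, limma adjusted p = 0.00183) and by 3.58-fold against hCD4- pro-B cells (-1.84, limma adjusted p = 0.000582). In the authors' deposited table these were -0.75 and -1.15, both called. Lat2, another membrane adaptor, went the other way at the pro-B stage and was lower than in the matching pre-pro-B cells, with log2 differences of -2.49 in hCD4+ and -4.06 in hCD4- pro-B cells (limma adjusted p = 6.84e-06 and 2.42e-07).

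Cnr2 read 1.97 and 1.88 in GMP, 2.23 and 1.81 in hCD4+ pre-pro-B, 0.97 and 1.57 in hCD4- pre-pro-B, 2.80 and 2.83 in hCD4+ pro-B, 1.84 and 2.20 in hCD4- pro-B and 3.33 and 3.11 in pre-B cells. Pre-B arrays were the highest and hCD4+ pro-B arrays the next, while those of GMP, hCD4- pro-B cells and hCD4+ pre-pro-B cells overlapped. Pre-B cells were 2.30-fold above hCD4- pro-B cells (log2 difference 1.20, SE 0.23, limma adjusted p = 0.00457). The 95% interval for pre-B against hCD4+ pro-B cells, on the same slide, was -0.12 to 0.93. Steps from pre-pro-B to pro-B were 0.79 in hCD4+ (limma adjusted p = 0.0189) and 0.75 in hCD4- cells (0.0213). The first was lost with array-median scaling (0.47, adjusted p = 0.0826) and without the second hCD4+ pre-pro-B array (0.59, adjusted p = 0.12) or either hCD4+ pro-B array (0.0657 and 0.0763). The second was lost with cyclic loess (0.45, adjusted p = 0.127) and without the first hCD4- pre-pro-B array (0.45, adjusted p = 0.116) or the second hCD4- pro-B array (0.57, adjusted p = 0.131), and in a fit of only the 4 arrays compared (0.0974). GMP were above hCD4- pre-pro-B cells by 0.65 (limma adjusted p = 0.0341), and in a fit of these 4 arrays alone the adjusted p was 0.107. That call was also lost with cyclic loess (0.30, adjusted p = 0.291), quantile normalization (0.48, 0.108), normexp and quantile normalization (0.48, 0.06), no filter (0.065), array weights (0.0962) and in the authors' deposited table (0.45, 0.0789), while array-median scaling gave 1.10. Without single arrays of GMP, hCD4- pre-pro-B or hCD4+ pro-B cells it reached 0.0504 to 0.195. All other calls of the 8 genes made within a slide were kept in fits of only the 4 arrays compared.

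The reporter comparison sets hCD4+ against hCD4- cells of the same stage. Cebpa itself was at least 8.72-fold higher in hCD4+ than in hCD4- pro-B cells (limma adjusted p = 0.000963), and differed by 0.49 (SE 0.49) between hCD4+ and hCD4- pre-pro-B cells. In pro-B cells 4 of the 8 genes passed the test, 2 higher and 2 lower in hCD4+ cells, against 19.1% of all genes tested (10.9% higher and 8.21% lower). Myb was 1.67-fold lower in hCD4+ pro-B cells (log2 difference -0.74, SE 0.12, limma adjusted p = 0.00585), and neither hCD4+ array reached the hCD4- ones. This call held under every alternative tried. Bcl11a was 1.53-fold higher in hCD4+ pro-B cells (0.62, SE 0.10, limma adjusted p = 0.00595). The Bcl11a call was lost with array-median scaling (0.40, adjusted p = 0.0765), with its probes averaged (0.133) and without the second hCD4- pro-B array (0.0551). Sox4 was 2.09-fold lower by its brightest probe (-1.06, SE 0.25, limma adjusted p = 0.0214), -0.65 by the second (0.0332) and -0.45 by the third (0.235). In the authors' deposited table it was -0.65 (0.0239). Leaving out any 1 of the 4 pro-B arrays raised the adjusted p of Sox4 to between 0.0626 and 0.127. Cnr2 was 1.74-fold higher (0.80, SE 0.23, limma adjusted p = 0.0463). Its call was lost without any 1 of 10 arrays, at adjusted p = 0.0515 to 0.22, with array-median scaling (0.58, 0.0663) and with no filter (0.0927). The median over the 8 genes was 0.01 against 0.02 over all genes.

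**Figure D4:**
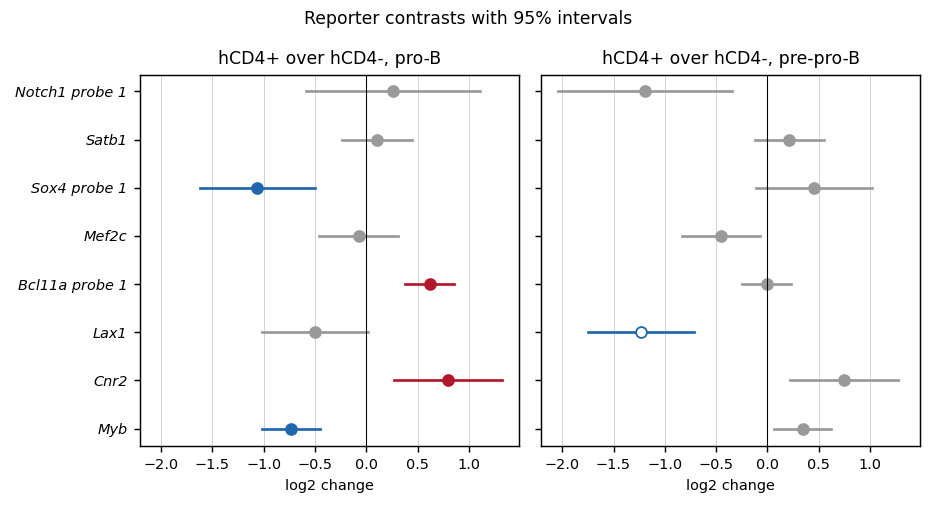
Log2 difference of hCD4+ over hCD4- cells (horizontal axis) with 95% intervals for each gene, pro-B cells in the left panel and pre-pro-B cells in the right; red is called higher, blue called lower, grey not called, and open points have both groups below background. In pro-B cells Bcl11a at 0.62 and Cnr2 at 0.80 lie right of 0, and Myb at -0.74 and Sox4 at -1.06 left of it.

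At the pre-pro-B stage 1 of the 8 genes, Lax1, passed the test between hCD4+ and hCD4- cells, against 17.1% of all genes (8.84% higher and 8.25% lower). Both of its groups were below background, so no level difference can be read from it. The arrays of 5 genes did not overlap between the groups (Notch1, Mef2c, Cnr2, Myb and the unreadable Lax1), and those of Bcl11a, Satb1 and Sox4 did. With 2 arrays a group this is common: 58.3% of all genes did not overlap. Cnr2 had a difference of 0.75 at this stage without passing the test (SE 0.23, limma adjusted p = 0.0573), near its 0.80 in pro-B cells. The median over the 8 genes was 0.10 against -0.06 over all genes. Array scaling bears on this comparison: scaled on array medians, Sox4 (0.76), Cnr2 (1.05) and Myb (0.64) were called higher in hCD4+ pre-pro-B cells, and the median of all probes stood at 0.22 instead of -0.08.

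A test of whether the hCD4 contrast differed between pro-B and pre-pro-B cells called 3 of the 8 genes, 1 higher and 2 lower, against 22.3% of all genes (12.4% higher and 9.84% lower). Myb had a difference of contrasts of -1.08 (SE 0.17, limma adjusted p = 0.00517) and Sox4 of -1.52 (SE 0.35, limma adjusted p = 0.0197). For Bcl11a it was 0.63 (SE 0.15, limma adjusted p = 0.0213). With arrays scaled on their medians the value for Bcl11a was 0.11 (adjusted p = 0.70), and it was 1.25 in the authors' deposited table and 1.74 with its probes averaged. Its call was lost without either hCD4+ pre-pro-B array, either hCD4+ pro-B array or the second hCD4- pro-B array (0.0528 to 0.0856) and with no filter (0.0578). The Sox4 call was lost without the second hCD4+ pre-pro-B, the second hCD4- pro-B or the first hCD4+ pro-B array (0.0655 to 0.0721). For Notch1 the value was 1.45 without passing the test (limma adjusted p = 0.0796), and its direction was not stable. It was 2.06 without the first hCD4- pre-pro-B array (adjusted p = 0.00765), 0.84 without the second (0.144), 0.05 in the authors' deposited table (0.922) and -0.49 with both probes averaged (0.558). The second Notch1 probe alone gave -2.44 (SE 1.05, adjusted p = 0.129). For Cnr2 the difference of contrasts was 0.05, with an interval of -0.70 to 0.79. The neutrophil and monocyte progenitor genes were higher in hCD4+ than in hCD4- pro-B cells, as given above, and neutrophil markers summed to 0.652 to 1.14 in hCD4+ and 14.1 to 25.7 in hCD4- pro-B cells. Plasmacytoid dendritic cell markers summed to 173 to 177 in hCD4+ and 131.2 to 131.4 in hCD4- pro-B cells. Their median log2 difference was 1.22 between these groups and 1.58 in the difference of contrasts. The part of these marker sets in the Myb, Sox4, Bcl11a and Cnr2 differences was not tested.

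Stage steps moved more of the genes, as they did for the array as a whole. From pre-pro-B to pro-B in hCD4+ cells, 5 of 8 were called (3 higher, 2 lower) against 53.7% of all genes (32.6% higher, 21.1% lower). In hCD4- cells 7 of 8 were called (4 higher, 3 lower) against 59.6% (32.8% higher, 26.8% lower). Between hCD4- pro-B and hCD4+ pre-pro-B cells, on 1 slide, 5 of 8 were called (3 higher, 2 lower) against 47.6% (29.1% higher, 18.5% lower). Pre-B cells differed from hCD4+ pro-B cells in 6 of 8 genes (2 higher, 4 lower) against 42.6% (19% higher, 23.6% lower). From hCD4- pro-B cells they differed in 5 of 8 (1 higher, 4 lower) against 40.4% (19.5% higher, 20.9% lower). Lax1 is among the genes counted higher in each comparison of pro-B with pre-pro-B cells, a direction set by the filter, and it enters the medians too. With 8 genes, these counts were not set apart from the shares of the array by any test. The medians over the 8 genes were 0.29 and 0.44 in the hCD4+ and hCD4- pro-B steps, against 0.25 and 0.03 over all genes. For pre-B cells they were -0.42 against hCD4+ and -0.30 against hCD4- pro-B cells, where all genes had 0.02 and 0.03.

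**Figure D5:**
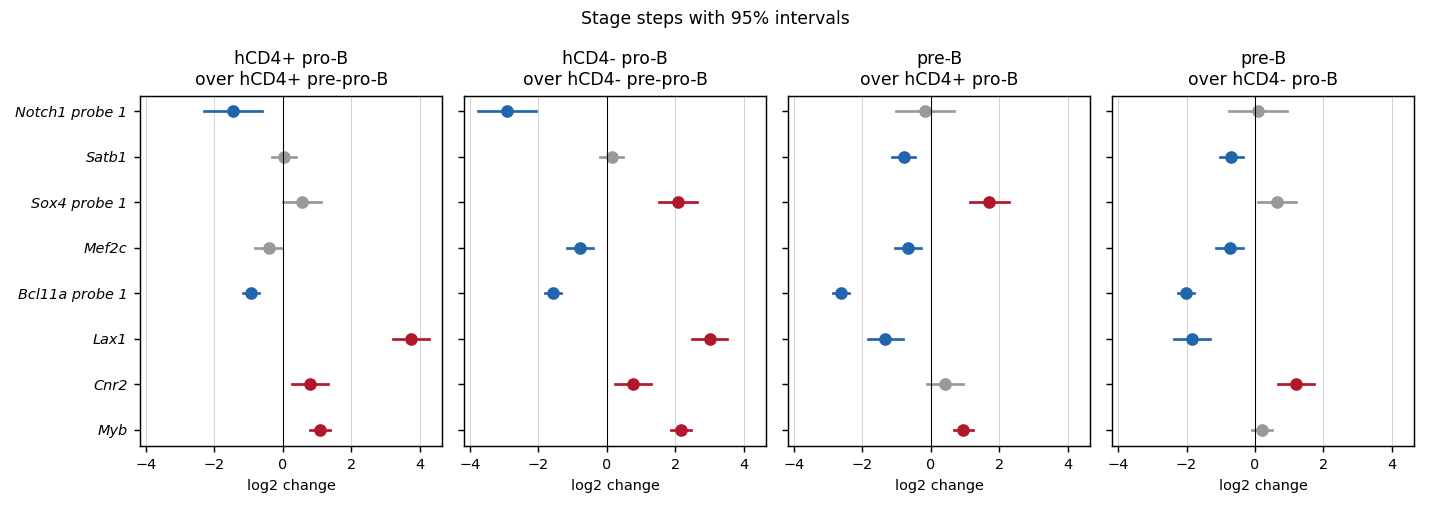
Log2 difference (horizontal axis) with 95% intervals for each gene in 4 stage steps, later over earlier stage: hCD4+ pro-B over hCD4+ pre-pro-B, hCD4- pro-B over hCD4- pre-pro-B, pre-B over hCD4+ pro-B, and pre-B over hCD4- pro-B. Bcl11a is lower in every panel, from -0.94 to -2.62.

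GMP set the myeloid branch against the earliest B stage. Plasmacytoid dendritic cell markers were lower in GMP, with a median log2 difference of -4.27 against hCD4- and -3.72 against hCD4+ pre-pro-B cells. Their part in the differences that follow was not tested. All 8 genes were called between GMP and hCD4- pre-pro-B cells, against 65.4% of all genes (34.7% higher and 30.8% lower), with Myb, Sox4 and Cnr2 higher in GMP and Bcl11a, Notch1, Mef2c, Satb1 and Lax1 lower. Lax1 was below background in both groups, so 7 of these differences can be read, and the Sox4 and Cnr2 calls were lost under the alternatives given above. Between GMP and hCD4+ pre-pro-B cells 5 were called, against 53.9% of all genes (31.2% higher and 22.8% lower): Myb was higher (log2 difference 1.84) and Bcl11a, Mef2c, Notch1 and Satb1 were lower. Notch1 there was at -1.34 (SE 0.37, limma adjusted p = 0.0145), a call lost after normexp correction and quantile normalization (-0.64, adjusted p = 0.0532), in the authors' deposited table (-0.55, 0.0647) and without the first GMP array (0.0791) or the second hCD4+ pre-pro-B array (0.0913). Against hCD4- pre-pro-B cells Notch1 was at -2.53 (SE 0.37, limma adjusted p = 0.000374), and at -1 in the authors' deposited table (0.00299). The medians over the 8 genes were -1.30 and -0.79, against -0.04 and 0.10 over all genes. All 20 genes of an early lymphoid progenitor list passed the filter, 7 of them not through GMP arrays, which favours lower values in GMP. Of these 20 genes, 3 were higher and 15 lower in GMP than in hCD4- pre-pro-B cells, with a median of -3.00, and 2 were higher and 15 lower than in hCD4+ pre-pro-B cells, with a median of -2.92. With genes below background at their bounds, and without those below background in both groups, the medians were -3.61 and -2.91. Among them, Ly6d, a surface marker of lymphoid progenitors headed for the B lineage, was at least 6481-fold lower in GMP than in hCD4- pre-pro-B cells, and Il7r, the interleukin 7 receptor chain, at least 296-fold lower. Both belong to the 7 genes that did not pass through GMP arrays, so the filter favoured their lower values in GMP.

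Across the 12 arrays, Mef2c and Bcl11a had a Pearson correlation of 0.91 and Sox4 and Myb of 0.80. Bcl11a and Myb ran opposite with -0.89, as did Notch1 and Myb with -0.89. These values describe arrays that share groups and slides. The genes most like each member among 12392 named genes, by Pearson correlation over the same arrays, were Fads3 (0.99) for Bcl11a, Helb (0.99) for Myb, Cmklr1 (0.98) for Notch1, Fyn (0.98) for Mef2c, Slx4 (0.98) for Sox4, Mst1r (0.96) for Satb1, Bfsp2 (0.98) for Lax1 and Gm4971 (0.99) for Cnr2. The next genes were Fbn1 (0.99) and Tnfrsf18 (0.98) for Bcl11a, B3gnt5 (0.99) and Mgst1 (0.98) for Myb, and Ddi2 (0.98) and Ugcg (0.98) for Notch1.

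Promoters of the genes that moved together or apart were read from RefSeq on the GRCm38.p6 build, which gave 16 start sites for 8 of 8 genes. The 250 bases before the start were searched on both strands for the E-box CANNTG, bound by E proteins, for TGGGAA, bound by the Notch partner RBPJ, and for the C/EBP motif TTNNGNAA. In all 32851 such windows, 66.2% held an E-box, 21.6% the RBPJ motif and 36.8% the C/EBP motif. Shown are Bcl11a (chr11:24080445-24080694, plus strand) and Sox4 (chr13:28953700-28953949, minus strand), with matches in capitals, and Myb (chr10:21160985-21161234, minus strand). Bcl11a and Myb ran opposite across the groups, and Sox4 and Myb together.
Bcl11a: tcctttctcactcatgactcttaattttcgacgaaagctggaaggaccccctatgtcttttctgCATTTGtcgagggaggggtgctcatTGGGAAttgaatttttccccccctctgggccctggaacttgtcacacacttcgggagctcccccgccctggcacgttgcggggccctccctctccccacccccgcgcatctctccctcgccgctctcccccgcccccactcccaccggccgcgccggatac
Sox4: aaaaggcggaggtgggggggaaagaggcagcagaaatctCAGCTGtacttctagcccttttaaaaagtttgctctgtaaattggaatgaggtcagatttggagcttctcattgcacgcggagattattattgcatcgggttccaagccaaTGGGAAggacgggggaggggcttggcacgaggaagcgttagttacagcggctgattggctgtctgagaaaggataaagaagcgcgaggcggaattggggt
Myb: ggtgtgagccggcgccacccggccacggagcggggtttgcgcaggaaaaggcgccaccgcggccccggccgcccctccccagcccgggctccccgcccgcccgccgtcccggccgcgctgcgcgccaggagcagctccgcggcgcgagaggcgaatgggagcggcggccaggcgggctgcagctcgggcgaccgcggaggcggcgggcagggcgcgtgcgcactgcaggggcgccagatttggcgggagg
The Bcl11a window held an E-box starting at position -186 and an RBPJ match at -161 from the start, and the Sox4 window held them at -211 and -100. The Myb window matched none of the 3 motifs. These matches describe letters only and are not bound sites.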

How the data were processed

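The authors deposited Agilent Feature Extraction 10.7.3.1 files with a processed signal intensity per spot, background-subtracted per the file headers. The authors also deposited a table made into 1 log2 value per gene and array, rounded to 1 decimal. Its normalization is not given in the sources used here, so it served as an alternative. Amplified, Cy3-labelled total RNA was measured on 12 arrays (44397 features each).

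Levels were log2 of the processed signal minus the array's 75th percentile over 43020 non-control features. The 2469 spot values flagged as outliers were set to missing, none was saturated, and spots of a probe were averaged. A probe was kept if some group had it above background on each of its 2 arrays and no value was missing (23271 probes, 18535 genes). A single limma 3.58.1 fit (R 4.3.3, lmFit and eBayes) over 6 groups gave 10 two-sided comparisons, with Benjamini-Hochberg adjustment over all kept probes and a threshold of 0.05. Each gene was counted by its kept probe with the highest mean level. The number of arrays, 2 a group, limits the precision. The fit was tested on simulated data.

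The members and gene lists were chosen with earlier results of these data known. Named genes were all members, up to 4 genes per list with the largest called differences, any paralog or Notch receptor, and the genes most correlated with each member. Ebf1 and Pax5 were named as markers, and Cebpa for its reporter. Alternatives covered background correction, scaling, filters, probe averaging, array weights, a replicate block, leaving out arrays and the deposited table.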

Additional observations from a re-analysis of the deposited data

Results flagged for a closer look

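The hCD4 contrast differed between pro-B and pre-pro-B cells, by the interaction term of the limma fit, for 5 probes of 3 genes. For Myb the difference of the contrasts was -1.08 (adjusted p = 0.00517): hCD4+ pro-B cells were below hCD4- pro-B cells (-0.74), and hCD4+ pre-pro-B cells stood 0.34 from hCD4- pre-pro-B cells. For Sox4 it was -1.52 by the brightest probe (adjusted p = 0.0197) and -0.94 by the second (adjusted p = 0.0284), while the third gave -0.88 (adjusted p = 0.0971). For Bcl11a it was 0.63 by the main probe (adjusted p = 0.0213). The second Bcl11a probe gave 2.85 (adjusted p = 0.0139) but was above background on neither hCD4+ pre-pro-B array and on 1 of the hCD4- pro-B arrays. The 4 groups of this test lie on 3 slides, and effects of the slide cannot be told apart from those of the group.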

How the results depend on the processing

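Over 1997 recomputed values, 1861 kept their side of the threshold, 84 lost a call and 52 gained one. The sign turned in 45 of them, in each case between values that passed the test under neither setting, as for Notch1 in the difference of contrasts (1.45, and -0.49 with its probes averaged) and between hCD4+ and hCD4- pro-B cells (0.26, and -1.23 with its probes averaged). Among hCD4+ against hCD4- pre-pro-B cells, 1 of the 8 genes was called, and the count was 3 with normexp and quantile normalization, 0 with quantile normalization or cyclic loess, 4 with array-median scaling, 3 in the authors' deposited table, 2 with a stricter filter, 2 with levels floored, 2 with probes averaged and 0 with only the arrays compared. In hCD4+ against hCD4- pro-B cells the count of 4 was 2 with array-median scaling. The count of 8 in GMP against hCD4- pre-pro-B cells was 5 with normexp and quantile normalization and 5 in the authors' table, and the count of 5 in hCD4- pro-B cells against hCD4+ pre-pro-B cells was 3 with probes averaged. The causes were not tested.

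Leaving out 1 array gave counts of 0 to 2 for hCD4+ against hCD4- pre-pro-B, 1 to 4 for hCD4+ against hCD4- pro-B cells and 1 to 4 for the difference of these contrasts. The hCD4+ and hCD4- steps to pro-B gave 3 to 6 and 6 to 7, and pre-B against hCD4+ and hCD4- pro-B cells 5 to 6 and 4 to 6. GMP gave 4 to 6 against hCD4+ and 6 to 8 against hCD4- pre-pro-B cells, and hCD4- pro-B cells against hCD4+ pre-pro-B cells 5. Array-median scaling also moved the share of calls that were higher in hCD4+ pro-B cells to 31.1% (57.4% otherwise), in hCD4+ pre-pro-B cells to 80.1% (46.9%) and in the difference of contrasts to 18.5% (58.2%). It moved that share to 38.7% (60.7%) in the hCD4+ step to pro-B, to 34.7% (48.9%) in pre-B against hCD4- pro-B cells and to 67.6% (51.4%) in GMP against hCD4- pre-pro-B cells. Under this scaling the median log2 change of all probes was -0.20 between hCD4+ and hCD4- pro-B cells, -0.44 in the difference of contrasts, 0.22 in hCD4+ against hCD4- pre-pro-B cells and 0.38 in GMP against hCD4- pre-pro-B cells. Cyclic loess put the share at 62.5%, 43.4% and 47.6% in hCD4+ pre-pro-B cells, the difference of contrasts and the hCD4+ step, and at 49.7% (61.1%) in hCD4- pro-B cells against hCD4+ pre-pro-B cells. In the difference of contrasts it was 46.1% with quantile normalization, 47.1% with normexp and quantile normalization and 47.9% in the authors' deposited table. A fit of only the pre-pro-B arrays called 2.23% of probes there, against 17.7%.

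Groups share replicate numbers that the labels do not tie to animals. Same-numbered arrays correlated at -0.015 to 0.269 over 15 pairs of groups, 10 of them over 0.1. With the number as a block, the count was 3 in hCD4+ against hCD4- pre-pro-B cells (Notch1, adjusted p = 0.0205, and Mef2c, 0.03, were added), and Cnr2 lost its call in pro-B cells (0.0561). With 2 arrays a group, probes near background, as for Lax1 and the second Bcl11a and Notch1 probes, limit what can be read.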

Other observations

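Enzymes that make or break down the ligands of the receptor encoded by Cnr2 were also measured. Daglb, a diacylglycerol lipase that makes 2-arachidonoylglycerol, averaged 1.39 ± 0.13 (SD, n = 2) in GMP and was above background on no pre-pro-B array. It was at least 48.0-fold higher in GMP than in hCD4- pre-pro-B cells on the same slide (limma adjusted p = 8.95e-07) and at least 69.7-fold higher than in hCD4+ pre-pro-B cells. Daglb passed the filter on dim signals through no pre-pro-B array, so the filter favoured these higher values in GMP. The p-value therefore lends no weight to the direction. Mgll, a lipase that breaks the same ligand down, was at least 9.68-fold higher in hCD4- pro-B than in hCD4- pre-pro-B cells. It passed the filter on dim signals only through pro-B or pre-B arrays, so that direction was set by the filter. Abhd6, another hydrolase, was lower in hCD4- pro-B than in hCD4- pre-pro-B cells (log2 difference -2.90, limma adjusted p = 6.08e-05).

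Class IIa histone deacetylases, known partners of Mef2 factors, split at the same stage. Hdac7 averaged 3.99 and 4.45 in hCD4+ and hCD4- pro-B cells and was higher by 2.70 in hCD4- pro-B than in hCD4- pre-pro-B cells (limma adjusted p = 4.46e-05). Hdac9 was lower in that step (log2 difference -1.95, limma adjusted p = 1.96e-05). Mef2a, a paralog of Mef2c, was higher in hCD4+ than in hCD4- pro-B cells by 1.75 (SE 0.30, limma adjusted p = 0.0066), whereas Mef2c differed by -0.08 there.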
